A study of Mus musculus with 6 samples.

Results

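The cyclin-dependent kinase (CDK) inhibitors of the INK4 and KIP families were examined in MEFs, fibroblasts cultured from mouse embryos, which had been given an adenovirus. The members were taken by symbol: Cdkn2a, Cdkn2b, Cdkn2c and Cdkn2d of the INK4 family and Cdkn1b and Cdkn1c of the KIP family, 6 genes set against a table of 26532 genes. Of the 6, 5 were measured and passed the filter on low counts, and Cdkn1c was not analysed here. In the 3 ORAI2 libraries the adenovirus carried ORAI2, a pore subunit of store-operated calcium channels, and the labels give the genotype as ORAI2 overexpression. In the 3 GFP libraries it carried green fluorescent protein, and the genotype is given as WT. All 6 libraries carry the treatment label osteogenic differentiation and the cell type label mesenchymal stem cells. The labels give neither the promoter that drives the transgene nor the time in culture, the number of passages or any addition of BMP9. Separate cultures are not stated either, so p-values rest on a spread between libraries that could be purely technical.

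CDK4 and CDK6, when bound to D-type cyclins, begin the phosphorylation of the retinoblastoma protein RB, and CDK2 with cyclin E completes it. RB then lets go of the E2F transcription factors, which switch on genes of DNA replication. INK4 proteins bind CDK4 and CDK6 and keep D-type cyclins from activating them, whereas KIP proteins bind whole cyclin-CDK complexes, above all those of CDK2. Cdkn2a also encodes ARF from another start and another reading frame, and ARF restrains MDM2, which degrades p53. In cultured mouse embryo fibroblasts the products of Cdkn2a and Cdkn2b are known to build up as the cells are passaged.

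Cdkn2a and Cdkn2b lie next to each other among the protein-coding genes of chromosome 4, and both fell, so the 250 bases before their annotated starts are shown here, with those of Cdkn2c, which did not pass the test, for comparison. The sequences are those of RefSeq for build GRCm38.p6, read 5′ to 3′ on the strand of the gene, and all 5 measured members were matched in that table. Capitals mark a GC box (GGGCGG, bound by Sp1), a cAMP response element (TGACGTCA) or a CCAAT box (CCAAT), on either strand.
Cdkn2a, ARF start, chr4:89294620-89294869, minus strand: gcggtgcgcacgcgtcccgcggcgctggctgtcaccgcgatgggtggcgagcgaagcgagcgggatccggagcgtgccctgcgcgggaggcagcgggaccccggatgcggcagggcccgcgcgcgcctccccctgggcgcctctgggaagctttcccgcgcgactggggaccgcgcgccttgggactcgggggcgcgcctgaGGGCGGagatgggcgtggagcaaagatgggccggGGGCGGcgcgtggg
Cdkn2a, INK4a start, chr4:89282193-89282442, minus strand: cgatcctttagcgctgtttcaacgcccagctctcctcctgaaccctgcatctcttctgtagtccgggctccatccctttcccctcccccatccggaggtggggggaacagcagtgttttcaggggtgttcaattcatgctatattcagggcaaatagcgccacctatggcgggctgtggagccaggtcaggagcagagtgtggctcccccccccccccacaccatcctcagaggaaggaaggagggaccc
Cdkn2b, chr4:89311033-89311282, minus strand: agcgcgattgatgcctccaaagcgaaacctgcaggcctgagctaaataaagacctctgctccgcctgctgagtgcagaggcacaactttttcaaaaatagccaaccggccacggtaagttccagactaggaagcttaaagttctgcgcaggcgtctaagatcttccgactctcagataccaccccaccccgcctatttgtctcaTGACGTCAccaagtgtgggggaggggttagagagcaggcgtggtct
Cdkn2c, outer start, chr4:109666757-109667006, minus strand: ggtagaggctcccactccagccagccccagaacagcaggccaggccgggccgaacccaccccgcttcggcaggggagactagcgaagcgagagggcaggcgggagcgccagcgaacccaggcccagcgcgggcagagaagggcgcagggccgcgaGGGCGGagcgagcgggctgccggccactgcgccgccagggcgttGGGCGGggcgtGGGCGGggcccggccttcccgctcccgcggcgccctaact

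The ARF start of Cdkn2a had 2 GC boxes and the outer start of Cdkn2c had 3, while the INK4a start and Cdkn2b had none. The inner start of Cdkn2c, whose sequence is not shown, had none either. Cdkn2b alone among the measured members had the cAMP response element, 46 bases before the start. This string was held by 1.55% of 32851 promoter windows of the same length. A GC box was held by 32.7% of these windows and a CCAAT box by 33.8%. Base composition differed as well, with 78.4% G or C at the ARF start, 60% at the INK4a start and 53.6% at Cdkn2b, against a median of 52.4% over all windows. The outer and inner starts of Cdkn2c had 77.2% and 42.8%, and the inner one held a SMAD string (CAGACA) 189 bases before the start. Neither start of Cdkn2a and not that of Cdkn2b held a FOXO string (GTAAACA, in 3.17% of windows), an E-box (CACGTG, 6.02%), an AP-1 string (TGACTCA, 4.46%), an ETS string (CCGGAAG, 6.91%) or a SMAD string (CAGACA, 17.1%), each searched on both strands. Cdkn2d and Cdkn1b held 3 and 1 GC boxes and 1 and 2 CCAAT boxes. These matches describe the letters in the windows and not binding.

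Orai2 itself, which checks the labels, had 67882, 53034 and 45140 counts in the ORAI2 libraries and 994, 914 and 909 counts in the GFP libraries. Total counts lay between 18526884 and 18844436 per library. Of 13 fibroblast and mesenchymal markers 11 were tested, of which 2 rose and 9 fell, and their summed level was 7125 to 7654 CPM (counts scaled to the library total) in the ORAI2 libraries and 9059 to 9541 CPM in the GFP libraries. Thy1 and Fap, also fibroblast markers, were nearly absent, with 9 and 35 counts over all libraries. Summed macrophage markers lay at 26.3 to 35.8 CPM in the ORAI2 libraries and 51.6 to 55.7 CPM in the GFP libraries, with 2 of 3 tested lower, while Ptprc, the pan-leukocyte marker, had 6 counts over all libraries. Summed endothelial markers lay at 16.3 to 17.5 CPM and 6.42 to 8.88 CPM in the ORAI2 and the GFP libraries, with 2 of 2 tested higher and Cdh5, a defining marker, at 9 counts over all libraries. Epithelial markers summed to 4.21 to 5.12 CPM in the ORAI2 libraries and 2.80 to 3.74 CPM in the GFP libraries. Of 2 tested, Grhl2 rose to 2.37 CPM in ORAI2, against 0.50 CPM in GFP libraries, Krt18 did not pass at 2.12 CPM in ORAI2 and 2.48 CPM in GFP libraries, and Epcam was at 0. Neural and glial markers summed to 163.6 to 174.8 CPM in the ORAI2 libraries and 132 to 144.1 CPM in the GFP libraries, most of it Nes, with 154.2 CPM in ORAI2 and 123.4 CPM in GFP libraries. Nes rose, Mbp fell (1.80-fold lower) and the remaining 2 of 4 tested did not pass, with a median log2 fold change of -0.09. Skeletal muscle markers summed to 1.78 to 2.64 CPM in the ORAI2 libraries and 2.85 to 4.87 CPM in the GFP libraries, with 1 of 2 tested lower and Ckm at 0. Markers named in this paragraph were picked after their values were seen. The part of these shifts in the results was not tested, and in bulk RNA fewer cells of a type and less RNA per cell cannot be told apart.

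Of the 5 measured CDK inhibitor genes, 4 fell and Cdkn2c did not pass an adjusted p of 0.05 (edgeR quasi-likelihood test, Benjamini-Hochberg adjustment over 13764 genes). Over all genes tested 42.9% passed, 22.1% as lower and 20.8% as higher in ORAI2. The median log2 fold change of the 4 INK4 genes was -0.65, where all genes tested had a median of -0.0018 and a median absolute value of 0.18. The groups did not overlap for any of the 5, which was so for 52.9% of all genes tested, and for 4 of the 5 the ORAI2 libraries were the lower ones, as for 26.4% of all genes. Cdkn2a and Cdkn2b fell by 1.5-fold or more, as 6.35% of all genes did. The 4 calls were lost when limma was run on the 6 deposited TPM columns (adjusted p between 0.266 and 0.742), which followed the counts poorly, and held on the TPM columns numbered 1 and 2.

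**Figure D1:**
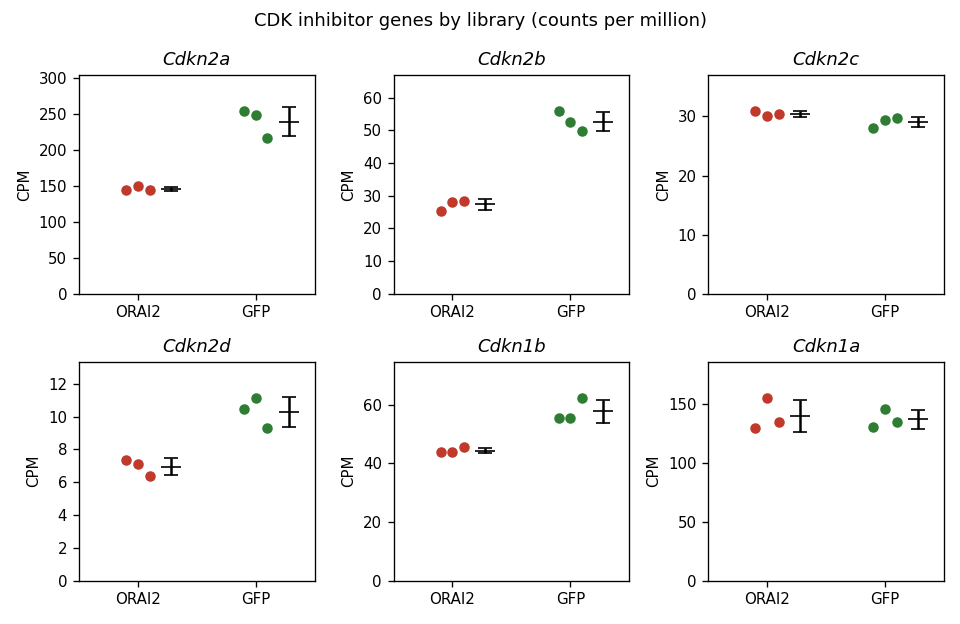
CPM of 5 CDK inhibitor genes and of Cdkn1a in each library (points; black bars, mean and SD, n = 3 libraries). For Cdkn2a, Cdkn2b, Cdkn2d and Cdkn1b the ORAI2 points lie below the GFP points, for Cdkn2c slightly above them, and for Cdkn1a they overlap.

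Cdkn2b encodes p15INK4b, an inhibitor of CDK4 and CDK6 that TGF-beta is known to induce in epithelial cells. It had 25.5, 28.2 and 28.4 CPM in the ORAI2 libraries, against 55.9, 52.5 and 49.8 CPM in the GFP libraries. The highest ORAI2 library was thus well below the lowest GFP library. Cdkn2b showed the largest fall of the 5 genes, 1.93-fold (edgeR adjusted p = 1.97e-07, log2 fold change -0.95 with SE 0.06).

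Cdkn2a, the gene of p16INK4a and ARF, had 143.8, 149.1 and 143.7 CPM in the ORAI2 libraries. In the GFP libraries it had 253.6, 247.8 and 216.4 CPM, so these were more spread but did not overlap with the ORAI2 libraries. It was 1.65-fold lower in ORAI2 (edgeR adjusted p = 7.07e-07, log2 fold change -0.72 with SE 0.06). The table counts the gene as a whole. The annotated transcripts of the gene are 852 and 895 bases long and share 575 bases, 67.5% and 64.2% of each, so the counts do not say which product changed. The annotated transcripts of Cdkn2a and Cdkn2b share no run of 31 bases, and their longest identical run is 23 bases.

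The balance between the neighbours Cdkn2a and Cdkn2b was read from their counts in the same library. There were 5.64, 5.29 and 5.06 Cdkn2a counts per Cdkn2b count in the ORAI2 libraries and 4.54, 4.72 and 4.34 in the GFP libraries. The ratio was higher in every ORAI2 library, by 0.23 on the log2 scale, with p = 0.1 in a two-sided exact permutation test, the smallest p that 3 against 3 libraries allow. The next protein-coding genes outward, Mtap and Dmrta1, did not pass the test. Mtap, a methionine salvage enzyme beside Cdkn2a, averaged 112.1 ± 3.79 CPM in ORAI2 and 115.6 ± 5.46 CPM in GFP libraries (SD, n = 3 each; log2 fold change -0.05, edgeR adjusted p = 0.420). Dmrta1, a transcription factor gene beside Cdkn2b, was scarce, at 0.99 and 1.43 CPM in ORAI2 and GFP libraries (log2 fold change -0.53, edgeR adjusted p = 0.0828). Every ORAI2 library lay below every GFP library for Dmrta1 too, so its low counts leave a fall undecided. Wincr1, a long non-coding RNA gene on the far side of Mtap, rose to 10.7 ± 0.23 CPM in ORAI2, against 3.79 ± 0.57 CPM in GFP libraries (2.81-fold, edgeR adjusted p = 8.58e-07). Of the 5 genes listed around the locus, Ifnb1 of the interferon gene cluster fell at a low level, to 0.36 CPM in ORAI2 libraries, against 2.57 CPM in GFP libraries (log2 fold change -2.82, edgeR adjusted p = 6.44e-06), and 4 did not pass. The median log2 fold change of these 5 was -0.38, with Klhl9 at -0.05 (edgeR adjusted p = 0.304) and Elavl2 at -0.38 (edgeR adjusted p = 0.0630), where every ORAI2 library lay below every GFP library. Dmrta1, Elavl2 and Wincr1 were picked after their values were seen.

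Cdkn2d encodes p19INK4d and was the scarcest of the measured members per length of transcript. It had 7.33, 7.11 and 6.37 CPM in the ORAI2 libraries, against 10.5, 11.1 and 9.31 CPM in the GFP libraries, which rests on 118 to 208 counts a library. It was 1.49-fold lower in ORAI2 (edgeR adjusted p = 8.00e-04, log2 fold change -0.57 with SE 0.11). Cdkn2c, which encodes p18INK4c and is known as a target of E2F factors, differed little. Its levels were 30.9, 30.0 and 30.4 CPM in the ORAI2 libraries and 28.1, 29.4 and 29.7 CPM in the GFP libraries. Every ORAI2 library lay above every GFP library, but the difference did not pass (log2 fold change 0.06, 95% confidence interval -0.05 to 0.18, edgeR adjusted p = 0.367).

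Cdkn1b encodes p27KIP1, which FOXO factors induce and which is kept low in growing cells mainly by breakdown of the protein. Its mRNA had 43.8, 43.9 and 45.5 CPM in the ORAI2 libraries and 55.6, 55.5 and 62.3 CPM in the GFP libraries. It was 1.31-fold lower in ORAI2 (edgeR adjusted p = 8.39e-05, log2 fold change -0.38 with SE 0.05), the smallest of the 4 falls. Cdkn1a, the gene of p21CIP1 and the related p53-induced inhibitor, is not among the 6 genes and was added here after its values were seen. It had 129.4, 154.9 and 134.6 CPM in the ORAI2 libraries and 130.0, 146.1 and 134.2 CPM in the GFP libraries. These groups overlapped fully (log2 fold change 0.03, 95% confidence interval -0.11 to 0.16, edgeR adjusted p = 0.754).

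**Figure D2:**
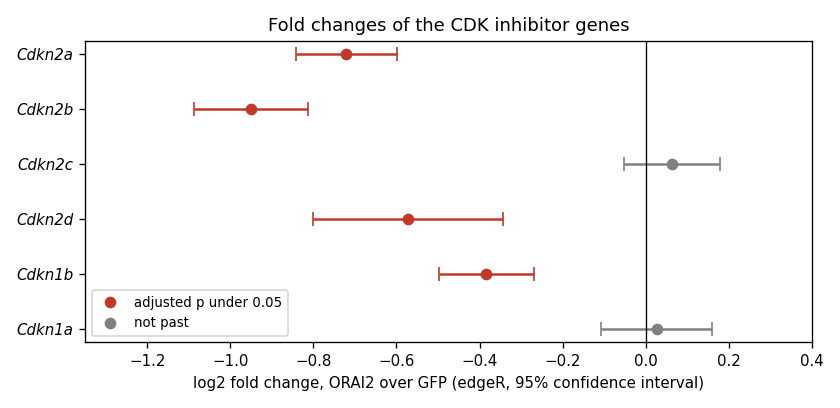
Log2 fold change of ORAI2 over GFP for each gene with its 95% confidence interval from the edgeR fit (3 libraries a group). The intervals of Cdkn2b, Cdkn2a, Cdkn2d and Cdkn1b lie below 0 and those of Cdkn2c and Cdkn1a include 0.

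Levels were compared between genes as CPM per kilobase of the median annotated coding transcript. On this scale Cdkn2a was by far the most abundant member, at 166.6 ± 3.55 in ORAI2 and 273.9 ± 22.9 in GFP libraries (SD, n = 3 each). Cdkn2b followed at 19.7 ± 1.16 in ORAI2 and 37.9 ± 2.18 in GFP libraries, and Cdkn1b at 18.5 ± 0.40 in ORAI2 and 24.2 ± 1.63 in GFP libraries. Cdkn2b and Cdkn1b were apart in the GFP libraries, whereas in the ORAI2 libraries their ranges per kilobase overlapped. Cdkn2c stood at 17.0 ± 0.25 in ORAI2 and 16.2 ± 0.48 in GFP libraries per kilobase, and Cdkn2d at 5.49 ± 0.40 in ORAI2 and 8.15 ± 0.73 in GFP libraries. Summed over the 5 genes the level per kilobase was 227.4 ± 3.91 in ORAI2 and 360.4 ± 23.5 in GFP libraries. Cdkn2a made up 73.3% of this sum in ORAI2 and 75.9% in GFP libraries, and Cdkn2c 7.48% and 4.52% in ORAI2 and GFP libraries. The Cdkn2a share is that of the whole gene, in which the counts do not separate p16INK4a from ARF.

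**Figure D3:**
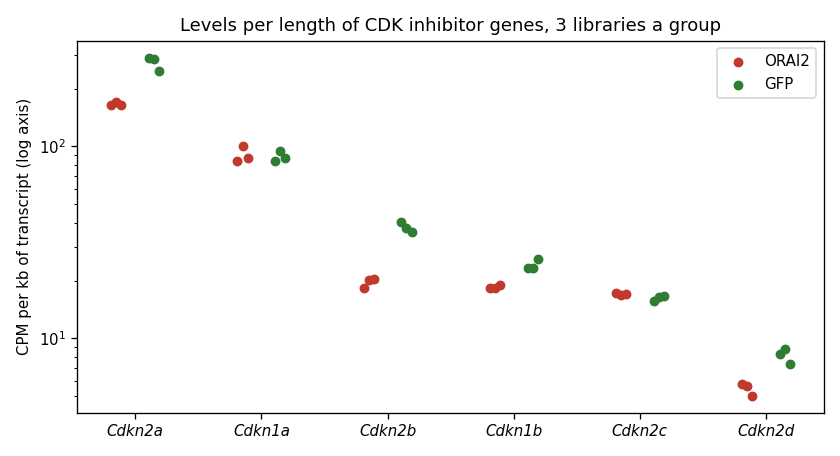
CPM per kilobase of transcript for each library on a log axis, genes ordered by level. Cdkn2a is highest in both groups, and in the ORAI2 libraries Cdkn2b lies near Cdkn1b and Cdkn2c.

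Over the 6 libraries the log2 CPM of Cdkn2a was most like that of Casp4 and Tor1aip1 (Pearson r = 0.999 for each), that of Cdkn2b most like Ccdc6 and Nfs1 (r = 1.000 and 0.999), and that of Cdkn1b most like Them6 and Pou6f1 (r = 0.998 and 0.997). For Cdkn2d the closest genes were Gstm2 and Taf1b (r = 0.996 each) and for Cdkn2c Polr3a and Trim43c (r = 0.996 and 0.993). These are the highest values among tested genes averaging 5 CPM or more, after genes with predicted-gene or clone-style names were left out. The 6 libraries share the split into ORAI2 and GFP, and the values are given as a description.

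Beyond the inhibitors, 12 lists of partners, targets and regulators held 143 tested genes, of which 61 rose and 25 fell (60.1% called, where 42.9% of all genes were). The partners of INK4 proteins moved both ways, with 2 of 5 higher, 1 lower and 2 not past the test (median log2 fold change -0.01). Cdk4, the kinase itself, rose 1.16-fold to 473 ± 6.20 CPM in ORAI2, against 407.8 ± 5.45 CPM in GFP libraries (SD, n = 3 each; edgeR adjusted p = 2.51e-04), and Ccnd1 (cyclin D1) rose 1.46-fold. Ccnd3 (cyclin D3) was 1.24-fold lower. Cdk6 and Ccnd2 (cyclin D2) had log2 fold changes of -0.01 and -0.08 (edgeR adjusted p = 0.874 and 0.105).

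A list of KIP targets among cyclins and kinases of the later cell cycle, with enzymes that act on these kinases, held 15 tested genes. Of these 12 rose, 1 fell and 2 did not pass, with a median log2 fold change of 0.26. The added enzymes activate or inhibit the kinases and are not KIP targets, so the count has no single direction. Ccne2, a cyclin E that activates CDK2, reached 76.1 ± 5.66 CPM in ORAI2, against 36.6 ± 1.70 CPM in GFP libraries (2.07-fold, SD, n = 3 each; edgeR adjusted p = 5.83e-08). Cdk2 rose 1.23-fold and Cdc25a, a phosphatase that activates it, 1.37-fold. Pkmyt1 and Ccnb2 had log2 fold changes of 0.01 and -0.0029. Of 13 RB and E2F genes 8 rose, 3 fell and 2 did not pass (median 0.15), with the repressor E2Fs E2f7 and E2f8 1.64-fold and 1.52-fold higher and Tfdp1, the E2F partner, 1.25-fold higher. E2f6 and E2f5 had log2 fold changes of -0.0038 and 0.11 and did not pass. Of 15 proliferation markers 9 rose, 2 fell and 4 did not pass (median 0.20). Pcna, the replication clamp, was 1.23-fold higher, Cdc20 1.35-fold higher and Mcm6, a subunit of the replicative helicase, 1.23-fold lower, while Top2a and Mcm2 (log2 fold changes 0.11 and 0.02) did not pass.

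**Figure D4:**
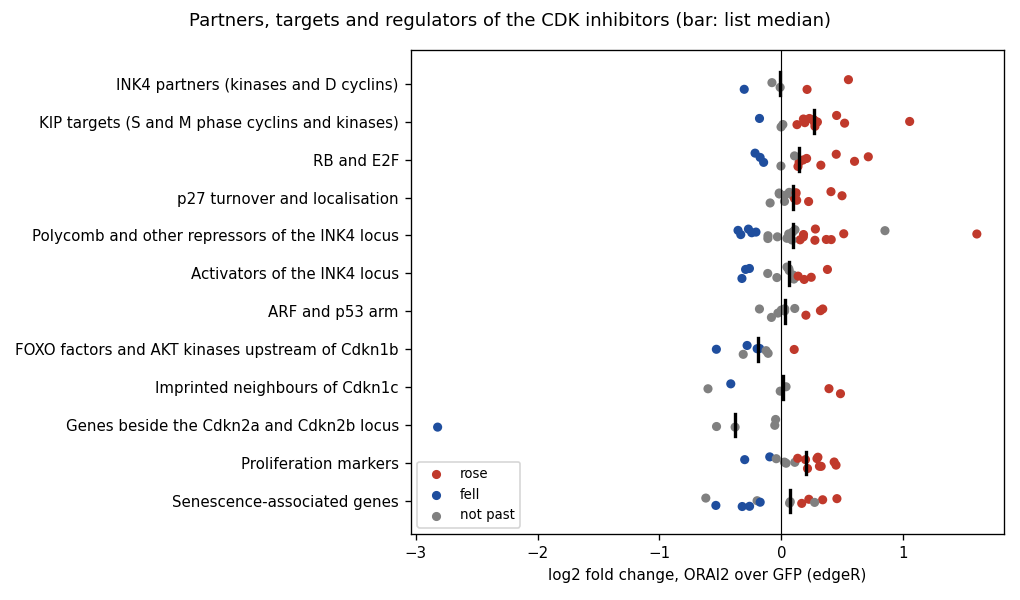
Log2 fold change (ORAI2 over GFP, edgeR) of each tested gene in 12 lists of partners, targets and regulators; colour gives the call and the black bar the list's median. The median of the list labelled KIP targets, which also holds enzymes that act on those kinases, is 0.26. That of the FOXO and AKT list is -0.19.

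Genes for the turnover and localisation of the p27 protein rose or did not pass, 7 and 9 of 16, with a median log2 fold change of 0.10. Skp2, which tags p27 for breakdown, rose 1.33-fold to 60.9 ± 1.54 CPM in ORAI2, against 45.8 ± 2.33 CPM in GFP libraries (SD, n = 3 each; edgeR adjusted p = 2.82e-05), and its cofactor Cks1b rose 1.17-fold. Cks2, a relative of Cks1b, rose 1.41-fold. Ddb1 and Usp19 had log2 fold changes of -0.02 and 0.03. Of 8 FOXO factors and AKT-type kinases 1 rose, 4 fell and 3 did not pass (median -0.19). Foxo4 was 1.45-fold lower, Akt2 1.15-fold lower, and Foxo3 and Sgk1 had log2 fold changes of -0.11 and -0.13 without passing (edgeR adjusted p = 0.0533 and 0.156).

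Repressors of the INK4 locus, mainly Polycomb proteins that keep it silent, had members that moved either way. Of 23 tested 9 rose, 5 fell and 9 did not pass, with a median log2 fold change of 0.09. Hmga2, a chromatin protein known in mouse neural stem cells to lower the products of Cdkn2a, showed the largest rise of them, to 857.4 ± 49.3 CPM in ORAI2, against 281.5 ± 9.98 CPM in GFP libraries (SD, n = 3 each; log2 fold change 1.60, edgeR adjusted p = 4.32e-10). The Polycomb genes Phc2 and Kdm2b rose 1.33-fold and 1.29-fold, while Cbx6 and Rnf2 did not pass (log2 fold changes 0.05 and -0.03). Of 14 genes listed as activators of the locus 4 rose, 3 fell and 7 did not pass (median 0.06). Their roles were not checked in these cells, and for Jund the role of activator is not established. Ets1, which activates the INK4a start in human fibroblasts, rose 1.30-fold, Jun rose 1.18-fold, Jund was 1.25-fold lower, and Kmt2a and Smad4 did not pass (log2 fold changes 0.10 and 0.06).

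In the arm that runs from ARF to p53, 3 of 10 genes rose and 7 did not pass, with a median log2 fold change of 0.03. Mdm2, the target of ARF, rose 1.25-fold to 185.6 ± 5.29 CPM in ORAI2, against 148.3 ± 6.80 CPM in GFP libraries (SD, n = 3 each; edgeR adjusted p = 3.80e-05). Trp53 and Sesn2, a p53 target, rose 1.15-fold and 1.27-fold. Cdkn1a, Ccng1, Zmat3 and Trp53inp1 of the same list did not pass (log2 fold changes 0.03, -0.00045, 0.03 and -0.18). These non-passing genes were picked after their values were seen. Npm1, which holds ARF in the nucleolus, and Huwe1, a ubiquitin ligase that ARF inhibits, had log2 fold changes of -0.08 and -0.03. Of 13 tested genes tied to senescence 4 rose, 4 fell and 5 did not pass (median 0.07). This list mixes genes known to be lost in senescence (Lmnb1, Hmgb1 and Hmgb2) with genes known to be gained. Its counts and median thus have no single direction. Hmgb2 and Hmgb1 were 1.26-fold and 1.17-fold higher, and Lmnb1 and Mmp3 also rose (log2 fold changes 0.17 and 0.46). Il6 was 1.45-fold lower, Glb1, Igfbp7 and Ccl2 also fell (-0.26, -0.32 and -0.17), and Cxcl1 did not pass (log2 fold change -0.20). Lmnb1, Mmp3, Glb1, Igfbp7 and Ccl2 were picked after their values were seen. Of 6 tested genes of the imprinted cluster on chromosome 7 2 rose, 1 fell and 3 did not pass (median 0.01), with Cd81 1.33-fold lower, Osbpl5 and Kcnq1ot1 higher (log2 fold changes 0.39 and 0.48), and Nap1l4 and Tssc4 at log2 fold changes of 0.04 and -0.0096.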

How the data were processed

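RNA was measured by sequencing of oligo(dT)-purified mRNA in 3 ORAI2 and 3 GFP libraries. Processing by the submitters involved build GRCm39, Salmon 1.4.0 and HISAT2 2.0.4, per the submitters' processing notes, with no roles, annotation or strand setting given in the sources used here. The authors deposited whole-number counts and TPM values for each gene, per the file headers. The TPM columns followed the counts of the same name poorly (correlation of deviations from the gene mean over 9303 genes, 0.09 for ORAI2 replicate 3 and 0.33 to 0.67 for the others), so they entered no main result. Symbols came from a RefSeq table (GRCm38.p6), which matched 25631 of 26532 Entrez numbers (96.6%). Transcript lengths and overlaps came from GENCODE M21 (GRCm38), where no other gene's exons overlapped those of the 5 measured members.

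Counts were tested in edgeR 4.0.16 (R 4.3.3) with TMM factors (0.990 to 1.01), a minimum count of 10 (filterByExpr) and group as the only term; calls were made at an adjusted p under 0.05, and standard errors derive from the F statistic. Levels are CPM of the library total. The step was also run on simulated counts with independent noise in each library, and the outcome is not reported here. Such a simulation cannot tell whether the libraries come from separate cultures. No pair of libraries of a group was a copy (chi-square per gene 2.54 to 4.50 over genes with at least 20 counts). The members and lists were chosen with earlier results of these data known. The text names the members and, per list, up to 3 called genes of smallest p and 2 uncalled genes of highest CPM. It also names the 2 genes closest to each member by Pearson r. These had a mean of at least 5 CPM and no predicted-gene or clone-style name. Others are named as picked after their values were seen. A few genes under this rule are not reported. Alternatives were RLE, upper quartile and library-size scaling, DESeq2 1.42.0, limma-voom (limma 3.58.1), no low-count filter or one at 5 CPM in 3 libraries, a replicate block and each library left out; limma on log2(TPM + 1) was added after the data were seen.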

Additional observations from a re-analysis of the deposited data

How the results depend on the processing

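In all 14 alternatives run on the counts, Cdkn2a, Cdkn2b, Cdkn2d and Cdkn1b stayed lower in ORAI2 and past the threshold, and Cdkn2c stayed short of it. The log2 fold changes ranged from -0.79 to -0.67 for Cdkn2a, -0.996 to -0.897 for Cdkn2b, -0.65 to -0.51 for Cdkn2d, -0.41 to -0.33 for Cdkn1b and 0.04 to 0.08 for Cdkn2c. With libraries left out in turn, 4943 to 5661 genes were called over the whole table, and 75 to 84 of the pathway genes. Same-numbered ORAI2 and GFP libraries deviated together only weakly (correlations 0.14, 0.07 and 0.13), although each correlated best with its own number, which is a hint from the data and not the design. With the replicate block, 4 members, 93 pathway genes and 6246 genes in all were called, against 4, 86 and 5909 without it. The deposited TPM columns gave another picture. Over all 6 of them limma called 0 members, 0 pathway genes and 4 genes in all. The log2 fold changes there were -0.57 for Cdkn2a, -0.62 for Cdkn2b, -0.62 for Cdkn2d and -0.49 for Cdkn1b (limma adjusted p = 0.338, 0.305, 0.742 and 0.266), and -0.18 for Cdkn2c, which reversed. Over the TPM columns numbered 1 and 2 all 4 calls held, with 3198 genes and 48 pathway genes called. The cause was not tested. In the TPM columns numbered 3, Cdkn2d was at 27.8 TPM in ORAI2 and 46.1 TPM in GFP, against at most 12.7 TPM and 20.2 TPM in the other ORAI2 and GFP columns.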
